A study of Mus musculus with 2 samples.

Results

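Glycinergic amacrine nuclei were taken from a spatial single-nucleus RNA library of mouse retina as the barcodes that held at least 2 molecules of Slc6a9 RNA and little RNA of the markers of other inner retinal cells. Slc6a9 encodes GlyT1, the plasma membrane transporter that loads these neurons with glycine. A molecule is counted here as 1 unique molecular identifier, or UMI. A barcode also had to hold at most 1 UMI of Gad1 plus Gad2, the enzymes of GABA synthesis, at most 2 UMIs of the Müller glia genes Abca8a, Crb1 and Rlbp1, and at most 2 of the bipolar and ganglion cell genes Trpm1, Grm6 and Slc17a6. The rule found 893 nuclei among the 16867 kept, which is 5.29% (95% Clopper-Pearson interval 4.96 to 5.64). Slc6a9, Gad1, Gad2 and the other 6 genes of the rule chose these nuclei, so their levels are given below as a description only.

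Amacrine cells are the inhibitory interneurons of the inner plexiform layer, the synaptic layer in which bipolar cells pass the signals of rods and cones to ganglion cells. Those that release glycine mostly have narrow dendritic fields that cross several strata of that layer and so link the ON and OFF pathways. The best known is the AII amacrine cell, which receives rod bipolar input, is coupled to ON cone bipolar cells and to other AII cells by gap junctions of connexin 36 (Gjd2), and inhibits OFF bipolar and ganglion cells by glycine. Most other amacrine cells release GABA, and the starburst type releases acetylcholine as well.

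The material came from 1 fresh-frozen, OCT-embedded retina section of 10 µm, for which the labels record 1 eye and no experimental treatment. The study set mice with 1 missense allele of Prph2, a photoreceptor outer segment gene, against wild type mice matched for age and sex, all on the C57BL/6J background, and took its spatial data at 6 months. The 2 libraries, one of expression and one of spatial barcodes, are both named T1 and carry no genotype, so no group could be compared with another, no p-value is given and no genotype was read from the values. All comparisons below are between classes of nuclei within 1 expression library. Intervals are exact 95% Poisson intervals for levels and Clopper-Pearson intervals for shares, and they cover counting error only. Those of a median depth are 95% intervals from the ranks of the nuclei. They treat the nuclei of 1 section as independent. A level is given in CPM, the pooled UMIs of a gene scaled to 1000000 UMIs of its class, and genes are compared only with themselves between classes.

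The expression library held 55843593 UMIs in 17285 barcodes. The 893 nuclei had a median of 3877 UMIs, against 5005 in 819 GABAergic amacrine nuclei that were not starburst, 6005 in 147 starburst nuclei and 1700 in the 15974 other kept nuclei. The nuclei lay in 4 pieces of tissue on the chip, with 266, 217, 234 and 176 of the 893 in pieces 1 to 4. The pieces did not read alike for genes of the sex chromosomes. Xist, the RNA of the inactive X chromosome, was at 45.2, 106 and 63.1 CPM in the selected nuclei of pieces 1, 2 and 3 and at 1027 CPM in those of piece 4. The Y-linked gene Uty stood the other way round, at 88.5, 93.9 and 109 CPM in pieces 1 to 3 and at 10.5 CPM in piece 4. The labels describe a single section of a single eye, so values that bear on the pieces are given piece by piece, and results that turn on 1 piece are named.

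**Figure D1:**
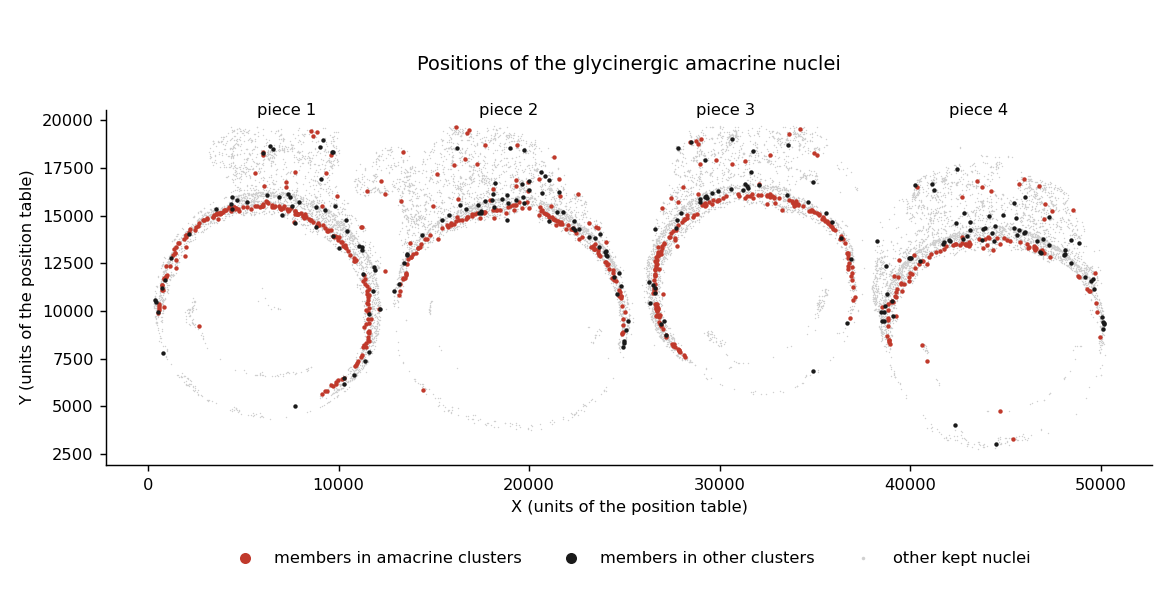
Positions of the kept nuclei on the chip, in the coordinate units of the deposited table. What length a unit stands for is not stated there. Red points are selected nuclei in clusters with amacrine transcription factors, black points are selected nuclei in other clusters, and grey points are all other kept nuclei; the 4 pieces are numbered, and they hold 266, 217, 234 and 176 selected nuclei.

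The share of nuclei with the amacrine marker Pax6 rose with the number of Slc6a9 UMIs. Pax6, the transcription factor that amacrine cells keep in the adult retina, had a UMI in 92.4% of the 422 nuclei with at least 5 Slc6a9 UMIs, in 79.3% of the 82 with 4, in 63.4% of the 123 with 3 and in 35.3% of the 266 with 2. Just outside the rule, 1105 nuclei with 1 Slc6a9 UMI had Pax6 in 11.9%. Depth rose as well, with medians of 1681, 2729.5, 3144, 3525 and 4532.5 UMIs from 1 Slc6a9 UMI to at least 5. In the same order Pax6 was at 123, 296, 478, 756 and 721 CPM. Rod nuclei, which should lack Pax6, had a UMI of it in 1.81% at a median of 1165 UMIs. At the GABA limit, Pax6 had a UMI in 89.3% of the 122 nuclei inside it with 1 Gad UMI, in 67.2% of the 771 with none and in 89.1% of the 55 just outside it with 2. The Müller glia limit turned away 288 nuclei that met every other condition, and only 14.6% of those held a Pax6 UMI. With the same 1000 UMIs drawn from each nucleus, Pax6 was found in 39.5% of the selected nuclei, 48.1% of the GABAergic nuclei and 1.32% of the rods deep enough to be drawn from.

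Clustering of the 893 nuclei on variable genes without the listed genes gave 16 clusters, and these fell into nuclei with and without amacrine transcription factors. In 11 clusters with 671 nuclei (75.1%), at least 80% of the nuclei held a UMI of Pax6, Tfap2a, Tfap2b or Tfap2c, the last 3 being AP-2 factors of amacrine cells. In the other 5 clusters, with 222 nuclei (24.9%), that share lay between 0 and 59.0%. Their leading genes were those of other cells: Rom1 and Gngt1 of rods in cluster 2 (91 nuclei, median 1512 UMIs), Opn1mw, Arr3 and Pde6c of cones in cluster 16 (14 nuclei), Rpe65, Rgr and Lrat of the retinal pigment epithelium (RPE) in cluster 14 (22 nuclei), and the vessel genes Eng, Rgs5, Notch3 and Pdgfrb in cluster 10 (39 nuclei). Cluster 7 (56 nuclei) had the highest summed rod list, at 29365 CPM, although none of its 10 leading genes was in that list, and 1.79% of its nuclei held an AP-2 or Pax6 UMI. The summed level of 12 rod genes was 417 CPM (394 to 442) in the 671 nuclei and 16665 CPM in the 222, against 621 CPM in GABAergic nuclei and 28647 CPM in rods. Summed RPE genes were at 181 CPM in the 671 nuclei and 1606 CPM in the 222, against 174 CPM in GABAergic nuclei. The split was not clean. Cluster 2, among the 222, had a UMI of Pax6 or an AP-2 factor in 24.2% of its nuclei. Genes known in AII cells were present in it, with Dab1 at 4793 CPM and Prox1 at 763 CPM. Its Gjd2 level was 269 CPM, against 149 CPM in the other selected nuclei. It passed the 2-fold limit for none of the AII markers used below. Whether some of its nuclei were AII cells left out of the 671 was not tested. Cluster 9, among the 671, had rod genes at 1962 CPM and ganglion cell genes at 1270 CPM, where the other amacrine clusters had rod genes at 82.8 to 919 CPM and ganglion cell genes at 14 to 203 CPM, and cluster 10, among the 222, had the share of 59.0%. Most of the 671 nuclei held Pax6 or an AP-2 factor because the limit required it. The leading genes or the rod list went against the label for most of the 222. Results are given for the 671, called glycinergic amacrine nuclei from here on, unless the 893 are named. The 80% limit was set after the clusters were seen, and no doublet caller was run.

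**Figure D2:**
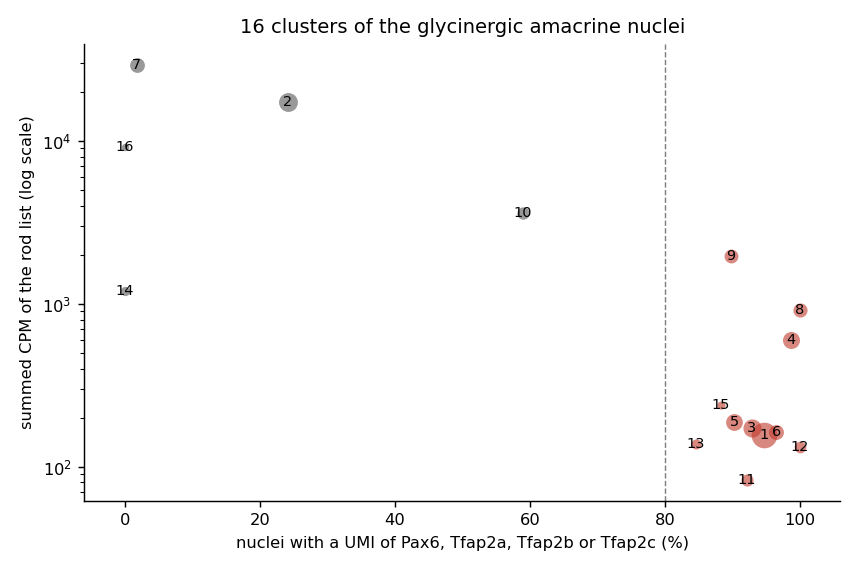
Each of the 16 clusters of selected nuclei, by the percentage of nuclei with a UMI of Pax6, Tfap2a, Tfap2b or Tfap2c (horizontal axis) and the summed level of 12 rod genes in CPM (vertical axis, log scale). Point size follows the number of nuclei and the dashed line stands at 80%. The 11 clusters right of the line hold 671 nuclei and the 5 left of it hold 222.

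The marker genes that the rule did not use had the following levels. Pax6 (ENSMUSG00000027168, GRCm38.p6 chr2:105668896-105698410) was at 726 CPM (695 to 758) in glycinergic amacrine nuclei, against 619 (596 to 643) in GABAergic nuclei, 372 in starburst nuclei and 197 in the kept nuclei outside the rule. Tfap2b (ENSMUSG00000025927, chr1:19208908-19238845) was at 445 CPM (421 to 470), against 453 (433 to 474) in GABAergic nuclei. In all 893 selected nuclei Pax6 was at 587 CPM (562 to 612) and Tfap2b at 353 CPM (334 to 373). Neither factor was 2-fold apart between the transmitter classes in either set. Prox1 (ENSMUSG00000010175, chr1:190118035-190170827), a homeobox factor known in AII cells, horizontal cells and bipolar cells, was at 784 CPM (752 to 817), against 45.7 (39.5 to 52.6) in GABAergic nuclei, and at 1176 CPM in rod bipolar nuclei. Dab1 (ENSMUSG00000028519, chr4:103619500-104744844), an adaptor of reelin signalling whose protein is a classic AII label, was at 6522 CPM (6427 to 6617), against 488 (467 to 509), a ratio of 13.4. By piece, Dab1 was at 6538, 6672, 7128 and 5007 CPM in glycinergic amacrine nuclei and at 514, 386, 574 and 453 CPM in GABAergic nuclei. Slc6a9 itself (ENSMUSG00000028542, chr4:117835258-117869305), fixed by the rule, was at 1585 CPM, against 35.6 CPM in GABAergic nuclei, and the 893 nuclei as a whole had 1394 CPM.

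Of 4 genes that separate these nuclei from other neurons or from each other, the promoter windows are shown from RefSeq on GRCm38.p6, each from 250 bases before to 50 bases after an annotated start. They are the GlyT1 gene that defines the class (first of its 3 annotated starts, chr4:117835008-117835307, plus strand), the connexin gene of the AII-like nuclei (chr2:114013570-114013869, minus strand), and Ebf3 (chr7:137314396-137314695, minus strand) and Slc17a8 (first of 2 starts, chr10:89621200-89621499, minus strand), which mark 2 other subsets below. Capitals mark the core letters CCCNNGGG bound by EBF factors, a palindrome that reads the same on both strands.
Slc6a9: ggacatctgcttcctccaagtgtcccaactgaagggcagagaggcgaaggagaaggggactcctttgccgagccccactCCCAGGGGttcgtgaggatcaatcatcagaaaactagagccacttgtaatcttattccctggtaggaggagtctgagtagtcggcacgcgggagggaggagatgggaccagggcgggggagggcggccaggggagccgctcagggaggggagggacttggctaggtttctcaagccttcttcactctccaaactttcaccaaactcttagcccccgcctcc
Gjd2: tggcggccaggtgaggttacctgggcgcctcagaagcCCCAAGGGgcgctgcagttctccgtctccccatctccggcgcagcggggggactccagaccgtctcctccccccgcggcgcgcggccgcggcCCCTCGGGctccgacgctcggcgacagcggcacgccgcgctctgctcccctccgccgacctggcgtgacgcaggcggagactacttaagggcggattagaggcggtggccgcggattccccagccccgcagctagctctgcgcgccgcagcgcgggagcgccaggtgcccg
Ebf3: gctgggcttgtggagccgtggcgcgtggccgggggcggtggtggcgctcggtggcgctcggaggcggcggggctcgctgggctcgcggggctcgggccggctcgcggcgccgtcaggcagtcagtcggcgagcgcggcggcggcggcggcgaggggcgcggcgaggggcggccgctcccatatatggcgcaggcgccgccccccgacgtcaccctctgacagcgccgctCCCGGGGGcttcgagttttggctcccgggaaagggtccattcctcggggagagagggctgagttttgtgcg
Slc17a8: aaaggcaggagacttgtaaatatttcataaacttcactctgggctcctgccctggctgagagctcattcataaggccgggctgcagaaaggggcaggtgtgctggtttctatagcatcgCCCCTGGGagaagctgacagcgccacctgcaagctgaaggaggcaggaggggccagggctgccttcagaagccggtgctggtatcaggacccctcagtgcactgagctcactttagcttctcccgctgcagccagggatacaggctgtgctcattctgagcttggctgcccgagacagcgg
The core was present once in the Slc6a9, Ebf3 and Slc17a8 windows and at 2 positions in that of Gjd2, while neither annotated start of Prox1 or of Dab1 held it. Among all 27025 genes with such a window, 15.4% held the core. Among the 15 genes highest in the Ebf3-high nuclei over the other glycinergic amacrine nuclei, 14 had a window and 5 of those (35.7%) held it. Ebf3, the gene by which these nuclei were chosen, is among the 5. The 15 lowest gave 4 of 13 (30.8%).

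Against GABAergic amacrine nuclei, the 893 selected nuclei had 822 of 9061 genes (9.07%) at least 2-fold higher and 578 (6.38%) at least 2-fold lower, among genes with at least 100 UMIs over both classes. In the 671 glycinergic amacrine nuclei the counts were 432 of 8413 genes (5.13%) higher and 536 (6.37%) lower. The list counts against GABAergic nuclei below are to be read beside these 2 shares. All 12 rod list genes were among the higher ones for the 893 nuclei and none of the 8 that could be tested was for the 671. The GABAergic class was not cleaned by clusters in the same way. Limiting both classes to nuclei with a UMI of Pax6 or an AP-2 factor left 457 genes higher and 529 lower. Of the 432 higher genes, 403 (93.3%) were above the GABAergic level in each of the 4 pieces, and of the 536 lower genes 515 (96.1%) were below it in each, the pieces being parts of the same pooled counts.

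Among transporters of the 2 transmitters that the rule did not use, Slc6a5 was higher and Slc6a11 lower in glycinergic amacrine nuclei. Slc6a5, the neuronal glycine transporter GlyT2 of spinal and brainstem glycinergic neurons, was at 210 CPM (193 to 228), against 90.4 (81.6 to 99.9) in GABAergic nuclei, a ratio of 2.32. Slc6a11, the GABA transporter GAT3, was at 38.1 CPM (31.3 to 46.1), against 655 (631 to 680), which is 0.0582 times its GABAergic level. Slc32a1, the vesicular transporter that both glycine and GABA use, was less than 2-fold apart, at 178 CPM, against 227 CPM. Slc6a12, a betaine and GABA transporter, went the opposite way from Slc6a11 and is given below. Gad1 and Gad2, low by the rule, were at 27.4 and 15.3 CPM, against 1004 and 235 CPM.

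The other genes that make or import glycine were less than 2-fold apart or too low to test. The list had 15 genes, of which 5 reached 100 UMIs over both classes and only Slc6a5 was 2-fold apart. Over the 893 nuclei, 0 of 6 tested genes of the list were 2-fold apart, so the Slc6a5 call rests on the cluster limit. The neutral amino acid carriers Slc38a1 and Slc38a2 were at 145 and 32.1 CPM, against 239 and 62.1 CPM. Dld, the dihydrolipoamide dehydrogenase that the glycine cleavage system shares with other complexes, was at 21 CPM, against 20.6 CPM. The 10 that could not be tested were the serine and glycine enzymes Phgdh, Psat1, Psph, Shmt1 and Shmt2, the cleavage proteins Gldc, Amt and Gcsh, and the carriers Slc7a10 and Slc38a5. None of these exceeded 12.1 CPM in glycinergic amacrine nuclei. Slc7a10 and Slc38a5 had no UMI in them, which allows up to 1.07 CPM (3 counts of the class total).

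Glycine receptor genes were present in both classes, with the alpha 1 subunit lower in the glycinergic one. Glra1 was at 22.1 CPM (16.9 to 28.3), against 56.0 (49.1 to 63.5) in GABAergic nuclei. Glra2 was at 103 CPM, against 85.5 CPM, and Glra3 at 169 CPM, against 150 CPM. The beta subunit gene Glrb was at 71.3 CPM, against 103 CPM. The scaffold gene Gphn (gephyrin) was at 1611 CPM, against 1660 CPM. Glra4 had too few UMIs for the test, at 12.1 CPM, against 1.41 CPM. Of the 6 tested genes of this list, 0 were higher and 1 was lower, with a median log2 ratio of -0.24, where all genes had -0.01.

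Among GABA receptor genes 1 of 11 was higher and 4 were lower, beside 5.13% and 6.37% of all genes tested. Gabrg3, the gamma 3 subunit, was the higher one, at 1905 CPM (1854 to 1956), against 255 (240 to 271), and it kept that order by piece, at 1823, 1960, 2088 and 1620 CPM, against 248, 253, 285 and 213 CPM. The pieces of the 2 classes did not overlap, but the gene was named for its wide pooled ratio and the pieces are parts of that pool. How many other genes lacked overlap was not counted. The lower ones were Gabrb1 (82.0 CPM, against 255), Gabra2 (85.6, against 198), the metabotropic subunit Gabbr2 (276, against 659) and Gabrg1 (10.3, against 22).

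**Figure D3:**
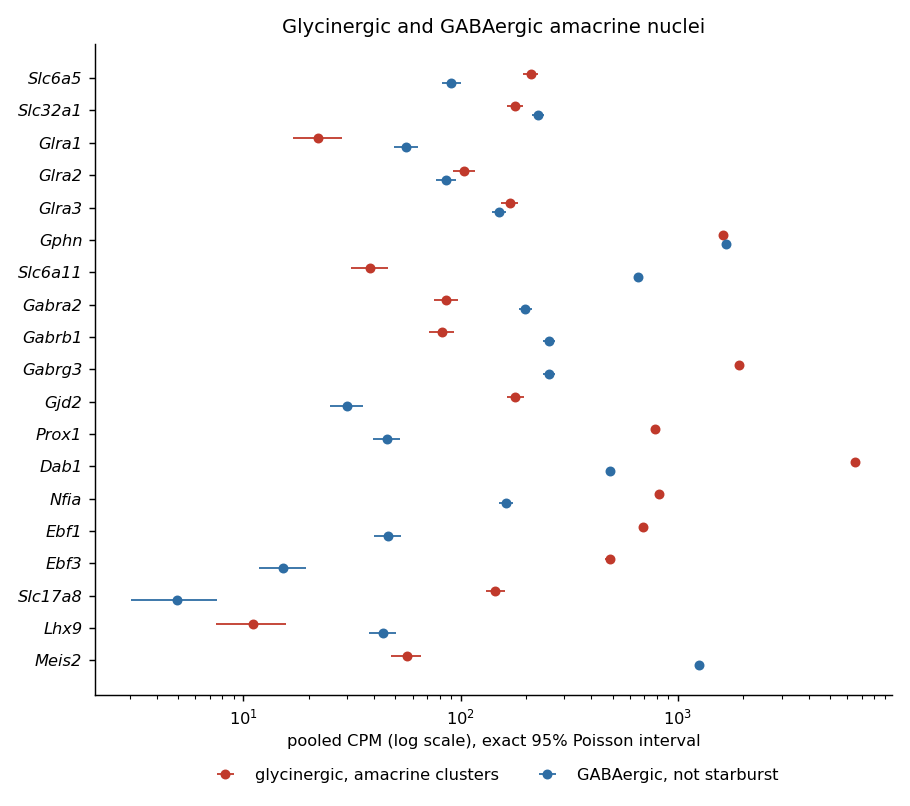
Levels of 19 genes in glycinergic amacrine nuclei (amacrine clusters, 671 nuclei) and in GABAergic amacrine nuclei (819 nuclei), in CPM on a log axis, with exact 95% Poisson intervals for counting error. Slc6a11 is at 38.1 CPM in the glycinergic class and 655 CPM in the GABAergic one, while Gabrg3 is at 1905 and 255 CPM.

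Genes outside the transmitter lists gave the widest ratios. Spink13, a serine protease inhibitor gene, was at 599 CPM (571 to 629), against 6.79 (4.55 to 9.75), a ratio of 88.2, and by piece at 654, 451, 698 and 530 CPM, against 8.02, 1.73, 6.86 and 13.2 CPM. Slc6a12, which encodes the betaine and GABA transporter BGT1, was at 109 CPM (96.9 to 122), against 0.703 (0.145 to 2.05) (3 UMIs). Lgr5, a receptor for R-spondins, was at 635 CPM, against 18.3 CPM, and Vegfc, a vascular growth factor, at 99.1 CPM, against 3.51 CPM. The extracellular matrix gene Frem2 (78.8 CPM, against 1.64) and the transporter gene Slco5a1 (48.1 CPM, against 0.937) were also among the 15 highest, together with Dnah11, Pkp1, Dipk1c, Ebf3, Slc17a8 and Drd2. The muscle myosin genes Myh15, Myh2 and Myh3 completed that list, but 97.6% to 97.8% of their UMIs were in 1 nucleus of piece 1.

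The 15 lowest genes included the peptide genes Vip and Tac2 and the peptide receptor gene Tacr1. Vip, the vasoactive intestinal peptide of a GABAergic amacrine type, was at 0.357 CPM (1 UMI), against 30.0 CPM (25 to 35.6). Tac2, a tachykinin gene, was at 0.713 CPM (2 UMIs), against 48.5 CPM, and the substance P receptor gene Tacr1 at 2.85 CPM (1.23 to 5.62), against 132 (121 to 143). The complement-like synaptic gene C1ql2 was at 3.57 CPM, against 158 CPM, and the ferrireductase gene Steap3 at 2.14 CPM, against 150 CPM. Cemip, which encodes a hyaluronan-binding protein, was at 8.56 CPM, against 337 CPM. The rest of the 15 lowest were Gad1os, Frem3, Pantr1, Adra1b, Kit, Igfbp2, Pappa2, Plb1 and Pde11a, at 0.357 to 2.14 CPM in glycinergic amacrine nuclei. Gad1os lies beside Gad1, a gene of the rule, and its reads cannot be told from those of a neighbour on the other strand without the strand setting.

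Transcription factors divided the classes on both sides. Of 24 tested genes in a list of factors that mark amacrine subsets, 8 were higher and 7 lower. The shares over all genes tested were 5.13% and 6.37%. Of the nuclear factor I genes, Nfia, Nfib and Nfix were higher and Nfic was not, at 153 CPM, against 168 CPM. Nfia was at 817 CPM (784 to 851), against 162 (150 to 174), Nfib at 190 CPM, against 23.2 CPM, and Nfix at 337 CPM, against 24.4 CPM. Ebf1 and Ebf3, early B-cell factors, were at 689 and 489 CPM, against 46.1 and 15.2 CPM. Among the factors of the amacrine identity list, Tcf4 was at 1488 CPM (1444 to 1534), against 182 (170 to 196), and Meis2 at 56.3 CPM (47.9 to 65.8), against 1254 (1221 to 1288). By piece, Tcf4 ran from 1401 to 1730 CPM, against 146 to 209 CPM, and Meis2 from 42.0 to 83.1 CPM, against 1191 to 1279 CPM. Neurod4, a proneural factor, was at 56.0 CPM, against 8.20 CPM. On the lower side were Zfhx3 (175 CPM, against 1140), Sox5 (127, against 674), Maf (9.63, against 111) and Nr4a2 (2.14, against 34.9).

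Of 16 tested AMPA and kainate receptor genes 4 were higher and 3 lower, the lower ones being Cnih3, Grik4 and Grik1. Shisa6, an AMPA receptor auxiliary protein, was at 835 CPM (802 to 870), against 56.2 (49.3 to 63.8), Shisa9 at 675 CPM, against 142 CPM, and Cacng5 at 220 CPM, against 61.6 CPM. The pore subunits Gria1 to Gria4 lay between 0.779 and 1.5 times the GABAergic level. In the list of NMDA, delta and metabotropic receptors 0 of 14 were higher and 6 were lower. The group III receptor gene Grm7 was at 448 CPM, against 1547 CPM.

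Channel genes held some of the widest ratios of the fixed lists. Cacna2d3, an alpha2delta subunit of calcium channels, was at 1075 CPM (1037 to 1114), against 60.9 (53.7 to 68.8), while its relatives Cacna2d2 (144 CPM, against 806) and Cacna2d1 (124 CPM, against 409) were lower. The low-threshold channel gene Cacna1h was at 272 CPM, against 84.8 CPM. Of 19 sodium and calcium channel genes 3 were higher and 7 lower. Kcnh1, the potassium channel EAG1, was at 711 CPM (680 to 743), against 51.8 (45.2 to 59.1), and Kcnip1, an auxiliary subunit of A-type channels, at 212 CPM (195 to 230), against 1961 (1919 to 2003). Of 22 potassium and HCN channel genes 7 were higher and 7 lower, where all genes tested had 5.13% and 6.37%.

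Receptors for modulators were mostly lower, with dopamine and serotonin exceptions. Of 17 tested genes for amine, acetylcholine and peptide receptors 4 were higher and 11 lower. Drd2, the D2 dopamine receptor, was at 245 CPM (227 to 264), against 8.90 (6.30 to 12.2), and Drd4 at 42.1 CPM (34.8 to 50.4), against 3.51 (1.97 to 5.79). Htr2a, a serotonin receptor, was at 109 CPM, against 7.73 CPM, and Vipr2, a receptor for VIP, at 123 CPM, against 60.2 CPM. The D1 receptor gene Drd1 was on the lower side, at 18.5 CPM, against 50.8 CPM, as were the muscarinic receptor genes Chrm1 (3.57, against 34.7) and Chrm3 (104, against 347).

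Recognition molecules that sort dendrites into strata of the inner plexiform layer were 5 higher and 20 lower of 47 tested, with a median log2 ratio of -0.70. Robo1, a Slit receptor, was at 202 CPM (185 to 219), against 2021 (1979 to 2064). Tenm1 and Tenm3, teneurins, were at 43.9 and 139 CPM, against 434 and 1188 CPM. Dscaml1, whose protein keeps amacrine dendrites apart, was on the other side, at 3192 CPM (3127 to 3259), against 501 (480 to 523), as was the contactin gene Cntn6, at 296 CPM, against 45.4 CPM. In the release machinery 1 of 22 genes was higher, the vesicle protein gene Sv2b at 288 CPM, against 42.9 CPM, and 6 were lower, with Syt7, a calcium sensor, at 92.3 CPM, against 856 CPM. The 1 higher gene is near the share over all genes tested, 5.13% higher, beside 6.37% lower. Calcium-binding proteins were 4 higher and 0 lower of 7, namely Calb1 (43.5 CPM, against 3.75), Cabp1 (881, against 228), Ncald (387, against 105) and Hpca (97.0, against 46.6). The sum of Müller glia genes was 636 CPM in glycinergic amacrine nuclei and 986 CPM in GABAergic nuclei, that of bipolar genes 878 and 1330 CPM, and that of ganglion cell genes 165 and 222 CPM, and their part in these ratios was not tested.

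Within the glycinergic amacrine nuclei, cluster 1 with 168 nuclei was the only one called AII-like, since 5 of 9 AII markers were at least 2-fold above the other selected nuclei. Values in the following paragraphs compare clusters with the other nuclei that were clustered together with them, so they are descriptions. Gjd2 (chr2:114009601-114014378) was at 479 CPM (430 to 533) in the AII-like nuclei, against 75.6 (64.3 to 88.4) in the other 503 glycinergic amacrine nuclei. By piece it was at 495, 600.5, 395 and 368 CPM, against 82.6, 94.3, 39.9 and 95.2 CPM. The 503 include cluster 5, described below, which alone held 139 Gjd2 UMIs at 383 CPM. Dab1 was at 12334 CPM, against 4530 CPM, Prox1 at 1571 CPM, against 514 CPM, Nfia at 1844 CPM, against 465 CPM, and Dner, a Notch ligand, at 1137 CPM, against 304 CPM. The other 4 markers went the opposite way: Nfib at 8.38 CPM, against 253 CPM, Nfix at 69.8 CPM, against 429 CPM, Calb2 at 51.7 CPM, against 103 CPM, and Drd1 at 1.40 CPM, against 24.4 CPM. Tjp1, the junction scaffold that binds connexin 36, was at 1288 CPM, against 533 CPM.

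The glycine transporter gene Slc6a5 and 2 dopamine receptor genes were higher in the AII-like nuclei, with 1 of 3 tested glycine genes past 2-fold. Slc6a9, a gene of the rule, was at 1972 CPM (1871 to 2078), against 1453 (1401 to 1505). Slc6a5 was at 427 CPM (381 to 478), against 135 (120 to 152), and by piece at 372, 447, 428 and 544 CPM, against 131, 158, 130 and 121 CPM. Drd4 was at 127 CPM (102 to 156), against 12.9 (8.52 to 18.8), and Drd2 at 631 CPM (574 to 692), against 112 (98.6 to 128). Against the other glycinergic amacrine nuclei 237 of 4957 genes (4.78%) were at least 2-fold higher and 671 (13.5%) at least 2-fold lower. The list counts for the AII-like nuclei are to be read beside these 2 shares. Pcsk6, a proprotein convertase, was at 1260 CPM, against 190 CPM, Tll1, a metalloprotease of the BMP1 family, at 1015 CPM, against 164 CPM, and Gfra1, the GDNF co-receptor, at 842 CPM, against 134 CPM. Nrg1 (neuregulin 1) was at 15538 CPM, against 2789 CPM.

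The AII-like nuclei had a narrow set of glutamate receptor genes. Gria3 and Gria4, AMPA subunits, were at 1108 and 1300 CPM, against 502 and 1133 CPM, and Gria2 was at 237 CPM, against 280 CPM. Gria1 was at 2.79 CPM (0.338 to 10.1), against 890 (850 to 932). Its 2 UMIs lay in pieces 1 and 2, and the other nuclei had 987, 689, 875 and 1009 CPM in pieces 1 to 4. The NMDA receptor gene Grin1 was at 426 CPM, against 324 CPM, but its partners Grin2a and Grin2b were at 1.40 and 5.59 CPM, against 377 and 521 CPM. The metabotropic receptor genes Grm7 and Grm8 were at 6.98 and 8.38 CPM, against 599 and 1513 CPM. In all, 9 of 10 tested NMDA, delta and metabotropic receptor genes were lower and 0 were higher, with a median log2 ratio of -6.37, where all genes had -0.06.

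Inhibitory receptor and channel genes moved less as lists. Of 10 tested GABA receptor genes 1 was higher and 5 lower in the AII-like nuclei (median log2 ratio -0.61), of 18 sodium and calcium channel genes 4 were higher and 8 lower (-0.21), and of 19 potassium and HCN channel genes 3 were higher and 8 lower (-0.54). Gabra3 was at 130 CPM, against 80.4 CPM, and Gabrg3 at 3163 CPM, against 1473 CPM, while Gabra2 was at 1.40 CPM, against 114 CPM. Gabrb2 had 0 UMIs, which allows up to 4.19 CPM (3 counts of the class total), against 162 CPM. Glra2 was at 12.6 CPM, against 135 CPM, whereas Glra3 was at 109 CPM, against 189 CPM. Among channels, Scn1a was at 874 CPM, against 254 CPM, Cacna1h at 573 CPM, against 169 CPM, Kcnma1, the BK channel, at 7404 CPM, against 1736 CPM, and Kcnh1 at 1666 CPM, against 383 CPM. Cacna2d3, so high in the glycinergic class as a whole, was at 2.79 CPM (0.338 to 10.1) in the AII-like nuclei, against 1443 (1392 to 1495), and Kcnip4, an A-type channel subunit, at 25.1 CPM, against 5645 CPM.

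Adhesion genes were lower in the AII-like nuclei in 29 of 43 cases and higher in 8, with a median log2 ratio of -3.78. Of all genes tested, 13.5% were lower and 4.78% higher. The immunoglobulin gene Sdk1 was at 3300 CPM, against 695 CPM, and its relative Sdk2 at 2.79 CPM, against 482 CPM. Likewise Dscaml1 was at 5992 CPM, against 2233 CPM, and Dscam at 4.19 CPM, against 887 CPM. Sdk2 and Dscam were thus nearly absent from the AII-like nuclei, while the other nuclei held both genes of each pair. In the presynaptic list 0 of 20 genes were higher and 5 lower. The median depth of the AII-like nuclei was 4316 UMIs and that of the others 3861.

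**Figure D4:**
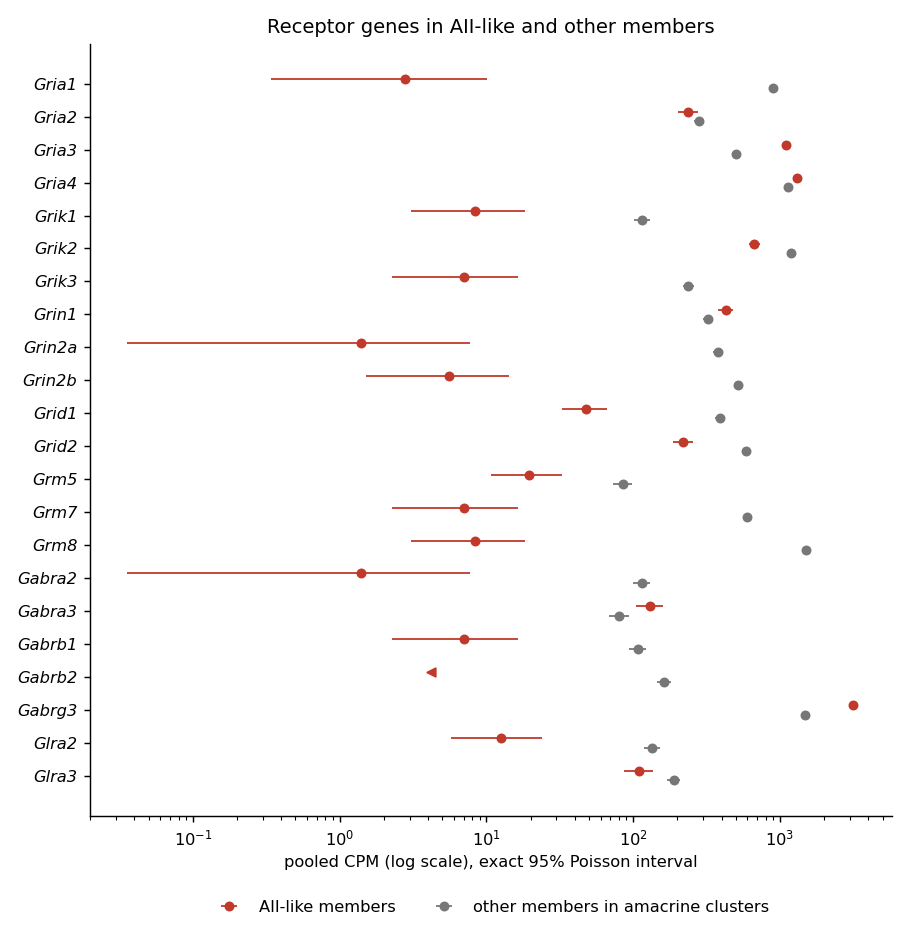
Levels of 22 receptor genes in AII-like nuclei (168) and in the other glycinergic amacrine nuclei (503), in CPM on a log axis, with exact 95% Poisson intervals. A triangle marks the level of 3 counts where no UMI was found. Gria1, Grin2a, Grin2b, Grm7 and Grm8 lie below 10 CPM in the AII-like nuclei and above 300 CPM in the others.

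Cluster 5, with 72 nuclei, shared part of the AII pattern but was left unnamed, since 3 of the 9 AII markers passed. Mitochondrial genes led it. Its mt-Co1 level was 3587 CPM, against 312 CPM in the other selected nuclei, and its median mitochondrial share was 0.217% of UMIs. In this cluster Dab1 was at 9347 CPM, Gjd2 at 383 CPM, Drd2 at 449 CPM and Gria1 at 5.51 CPM. Prox1, Nfia and Dner were at 1172, 1423 and 891 CPM. Cluster 5 was counted among the other 503 nuclei above, so for these genes it brings their values closer to the AII-like ones. Other cluster settings called 198 to 240 nuclei AII-like, against 168 here.

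A second subset was defined by Ebf3. Clusters 3, 8 and 13, with 84, 51 and 26 nuclei, had Ebf3 at 2130, 2003 and 1588 CPM, whereas the other glycinergic amacrine clusters had between 5.51 and 368 CPM. The clusters were given no cell type name. Over the 161 nuclei, Tfap2b was low, at 57.4 CPM (40.0 to 79.8), and Pax6 was at 946 CPM (870 to 1026). Of 43 laminar adhesion genes, 15 were higher and 11 lower than in the other glycinergic amacrine nuclei, which include the AII-like ones. Over all 4957 genes tested, 232 (4.68%) were higher and 382 (7.71%) lower.

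Ebf3 (chr7:137193671-137322805) was at 2130, 1878, 2011 and 1925 CPM in pieces 1 to 4. Esr1, the estrogen receptor alpha gene, was at 431 CPM (381 to 486), against 9.57 (5.92 to 14.6) in the others, and cluster 3 alone was at 793 CPM. Grik3, a kainate receptor subunit, was at 654 CPM, against 46.5 CPM, and Igf1 at 179 CPM, against 7.74 CPM. These 3 genes belonged to cluster 3, which held 261 of the 263 Esr1 UMIs, 394 of the 399 Grik3 UMIs and 107 of the 109 Igf1 UMIs of the Ebf3-high nuclei. Kcnmb2, a BK channel beta subunit, was at 533 CPM, against 21 CPM, and 299 of its 325 UMIs were in cluster 8, at 1597 CPM. Cntnap5b, a contactin-associated protein gene, was at 1036 CPM in cluster 8. Cluster 13 was led by Nxph4, Col15a1 and Vwa5b1, the last at 661 CPM, against 23.3 CPM. Cacna2d3 was at 2668 CPM over the Ebf3-high nuclei.

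Another pattern was that of Slc17a8, the vesicular glutamate transporter VGluT3 (chr10:89574020-89621249), which marks a glycinergic amacrine type that also releases glutamate. Cluster 12, with 35 nuclei, had it at 2264 CPM, against 3.40 CPM in the other selected nuclei, and a UMI of it was found in 97.1% of its nuclei. Of the 405 Slc17a8 UMIs in glycinergic amacrine nuclei, 396 were in this cluster. The same nuclei were led by Plpp4, Col24a1 and Nxph1, the last a neurexophilin gene at 4791 CPM, against 24.9 CPM, and by the serotonin receptor gene Htr2c at 292 CPM, against 2.55 CPM. Their Tfap2b level was 880 CPM, while Dab1 and Prox1 were at 429 and 45.7 CPM, near the levels of the GABAergic class. The cluster had 12, 6, 15 and 2 nuclei in pieces 1 to 4, and over all glycinergic amacrine nuclei Slc17a8 was at 134, 81.2, 250 and 61.1 CPM by piece.

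The remaining clusters each had a short set of leading genes. Cluster 4, with 74 nuclei, was led by Shisa9 at 5102 CPM, against 153 CPM, by the peptidase gene Trhde, by Sgcz and by Gria1 at 4044 CPM, against 226 CPM. It held 1147 of the 1860 Gria1 UMIs of the nuclei that were not AII-like, and its Nfia level of 1118 CPM was the highest outside clusters 1 and 5. Cluster 6, with 57 nuclei, was led by Tmem132c at 2121 CPM, against 27.7 CPM, the neuropeptide S receptor gene Npsr1 at 951 CPM, against 16.6 CPM, Pkhd1 and Trhr, and its Dab1 level was 9382 CPM with no Gjd2 UMI. Cluster 11, with 38 nuclei, was led by Galnt15, Ptpn5 and Tunar and had Nfib and Nfix at 1353 and 1339 CPM. Cluster 9, with 49 nuclei, was led by Tmem163 and Reln, which encodes reelin, at 637 CPM, against 23.2 CPM, and it was the amacrine cluster with most RNA of the ganglion cell and rod lists, at 1270 and 1962 CPM, whose part in its profile was not tested. Cluster 15 was the smallest, with 17 nuclei, and was led by Mafa and by 3 genes of cholinergic receptors. Its muscarinic receptor gene Chrm2 was at 1765 CPM, against 24.7 CPM, and the nicotinic genes Chrna4 and Chrna2 were at 240 and 360 CPM, against 1.92 and 4.94 CPM.

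Across the 11 clusters the class markers varied widely. Dab1 spanned 429 CPM in cluster 12 to 12334 CPM in cluster 1, and Slc6a5 spanned 7.91 CPM in cluster 9 to 427 CPM in cluster 1. Prox1 was at 1571 CPM in cluster 1 and 1172 CPM in cluster 5, at 597 to 775 CPM in clusters 3, 11, 13 and 15, and at 45.7 and 45.8 CPM in clusters 12 and 4. Tfap2b was at 525 to 880 CPM in clusters 1, 4, 5, 6 and 12 and at 0 to 117 CPM in clusters 3, 8, 9, 11, 13 and 15. Ebf1 ran nearly opposite, at 2.76 to 49.4 CPM in clusters 1, 4, 5 and 12 and at 469 to 2485 CPM in clusters 3, 6, 8, 9, 11, 13 and 15. Pax6 varied least of these, between 488 and 1030 CPM. The clusters had been kept by their share of nuclei with a Pax6 or AP-2 UMI, which favours a narrow range of Pax6. In the selected nuclei of the clusters left out, Pax6 was at 152 CPM.

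Over the other 15974 kept nuclei, the 893 selected nuclei had 672 of 15149 genes (4.44%) at least 2-fold higher and 2703 (17.8%) lower, and the 671 glycinergic amacrine nuclei 1038 of 15115 (6.87%) higher and 3868 (25.6%) lower. Spink13 headed the list for the 893, at 493 CPM (471 to 517), against 18.6 (17.5 to 19.8). Lamp5, a neuronal lysosome-associated membrane protein gene, was at 250 CPM, against 17.1 CPM, and Syndig1, an AMPA receptor-associated protein gene, at 167 CPM, against 11.7 CPM. The others of the 15 highest were Slc6a12, Nxph2, Nhlh1, Ntsr1, Dab1, Slc17a8, Htr2a, Lypd1, Pkp1, Traip, Gabrg3 and Kcnh1, with ratios of 10.8 to 18.2. All of them were higher again when the 671 were used, with ratios of 13.3 to 23.7.

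Starburst amacrine nuclei, the cholinergic and GABAergic cells of the section, stood apart in the same markers. The 893 nuclei had 1185 of 7100 genes (16.7%) at least 2-fold higher than starburst nuclei and 435 (6.13%) lower, and the 671 had 742 of 5987 (12.4%) higher and 420 (7.02%) lower. Dab1 was at 6522 CPM in glycinergic amacrine nuclei, against 46.7 CPM (33.8 to 62.9) in starburst nuclei, and Prox1 at 784 CPM, against 15.2 CPM.

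The position of the nuclei was measured as radial depth inside the ring of RPE nuclei of each piece, in the chip's units. Within the band from 200 units outside the ring to 1200 inside it, glycinergic amacrine nuclei had a median depth of 480 (458 to 501, 471 nuclei), against 524 (508 to 538) for GABAergic nuclei and 641 (619 to 704) for starburst nuclei. Rod bipolar nuclei lay at 340, rods at 139 and ganglion nuclei at 714, so the order of medians within the band followed the layers of the retina. Nuclei further outside the ring were left out. They were 77 of 550 glycinergic amacrine nuclei with a depth, 58 of 684 GABAergic, 221 of 808 rod bipolar and 1399 of 4029 rod nuclei. The selected nuclei in clusters without amacrine factors lay at 110 (85.4 to 157), near the rods. AII-like nuclei lay at 497 (454 to 530) and Ebf3-high nuclei at 433 (403 to 464). In pieces 1 to 4 the AII-like medians were 610, 388, 479 and 603, against Ebf3-high medians of 462, 395, 388 and 502. The order was thus reversed in piece 2. Left out as further outside the ring were 7 of 137 AII-like and 27 of 125 Ebf3-high nuclei with a depth. By piece the glycinergic medians were 624, 402, 415 and 553, against GABAergic medians of 645, 432, 459 and 565, so the glycinergic median was the shallower one in each piece, by less than the difference between pieces. Measured instead as the distance to the nearest RPE nucleus, the medians were 477 for glycinergic amacrine nuclei and 513 for GABAergic nuclei. Among the 20 nearest nuclei of a glycinergic amacrine nucleus, GABAergic nuclei were 2.70 times and rods 0.485 times as frequent as among all kept nuclei.

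**Figure D5:**
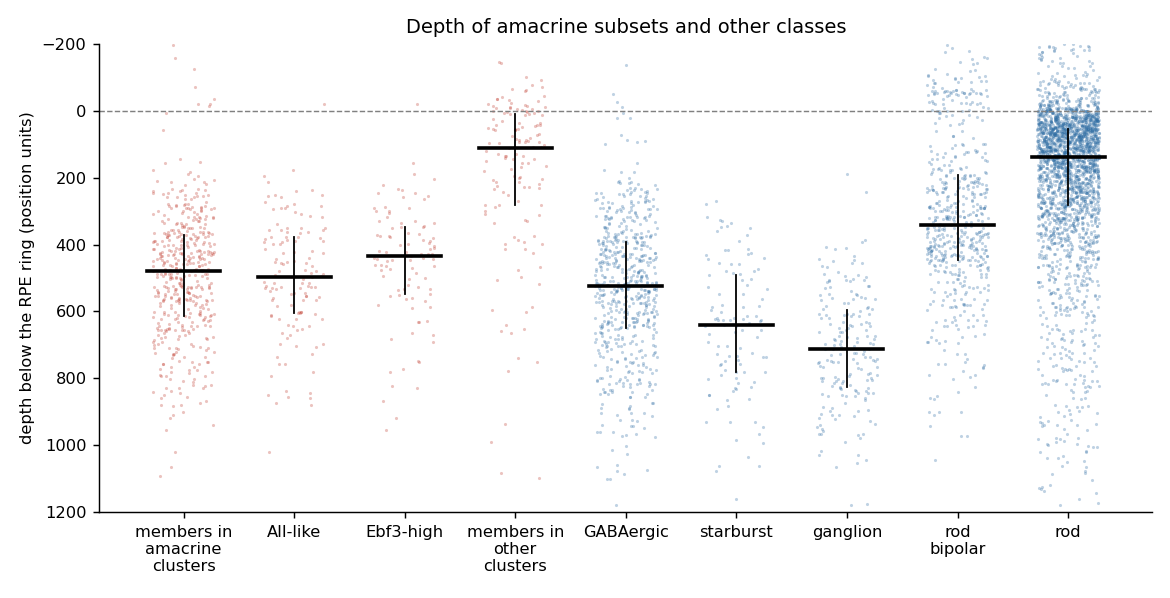
Depth inside the RPE ring, in chip units increasing downward, for classes of nuclei, with each nucleus within the band as a point, the median as a bar and the quartiles as a line. Glycinergic amacrine nuclei, with a median of 480, lie between rod bipolar nuclei at 340 and starburst nuclei at 641, and overlap widely with GABAergic nuclei at 524.

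The 893 nuclei made up 5.95%, 5.25%, 6.33% and 3.85% of the kept nuclei of pieces 1 to 4. The share of them outside the amacrine clusters was 19.9%, 28.1%, 17.5% and 38.1%, highest in piece 4 (30.9 to 45.7). AII-like nuclei were 23.5%, 29.5%, 29.0% and 14.7% of the glycinergic amacrine nuclei, lowest in piece 4 (8.63 to 22.7), while Ebf3-high nuclei were 24.4%, 21.8%, 22.8% and 28.4%. Over the 671 nuclei, 25 of 4957 genes (0.504%) differed at least 5-fold between the highest and the lowest piece, and the median ratio over all genes was 1.38. Over the 893 nuclei the count was 51 of 6284 (0.812%). Among the 10 widest for the 893 were Ttn, Myh3, Myh15, Myh2, Tnnt3, Atp2a1, Mb, Ptprb and Ryr1, and 9 of the 10 were muscle genes that were highest in piece 1. For each of those 9, a single nucleus of piece 1, the same one, held 66.7% to 97.8% of the UMIs. Without it the counts were 40 of 6241 genes for the 893 nuclei and 11 of 4916 for the 671. Among the 10 widest for the 671, Srgap1 and the ganglion cell marker Rbpms were not muscle genes. Srgap1, a GTPase-activating protein gene of Slit and Robo signalling, was at 1.13, 94.3, 70.3 and 122 CPM in pieces 1 to 4, and Rbpms at 1.13, 120, 53.3 and 90.4 CPM, so both were nearly absent from piece 1. Over the 893, Ttn (titin) was at 2465 CPM in piece 1 and at 27.3, 18.7 and 25.5 CPM in pieces 2 to 4. Ptprb, a phosphatase gene of vessel cells, was the exception among the 10 widest for the 893, at 84.0, 68.8, 98.7 and 3.00 CPM over those nuclei. The pieces carry no labels of their own, so these differences are values of 4 parts of 1 library.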

How the data were processed

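Nuclei of 1 section were profiled with SeekSpace, which gives each nucleus an expression profile and a chip position. Raw UMI counts per gene and barcode make up the deposited matrix, and the deposited position table gives coordinates in other units of unstated length. Seurat 4.1.1, STAR, fastp and mm10 are named, per the submitters' processing notes. The roles of these tools, the annotation, the strand setting and whether introns were counted were not given in the sources used.

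From these files, barcodes with at least 200 genes and under 10% mitochondrial UMIs were kept. Counts were pooled per class into CPM, and a gene with at least 100 UMIs over both classes was called higher or lower at a ratio of at least 2. With 1 library and no groups, no test across samples was possible. Clusters came from 2000 variable genes less those of the lists, 20 components, 15 neighbours and Leiden resolution 1. Pieces were split at 3 gaps in the horizontal coordinate, because the planned rule of connected positions joined them. Tools were scanpy 1.11.5, igraph 0.11.9, anndata 0.12.19, scipy 1.17.1, pandas 2.3.3, scikit-learn 1.9.0, numpy 2.4.6 and matplotlib 3.10.9 under python 3.11.15. The counting of called genes was tested on simulated counts with known changes, in which all nuclei of a class had the same profile. That simulation does not bear on calls that rest on a few nuclei. Promoters and gene positions came from RefSeq tables on GRCm38.p6, the assembly of mm10, matched by symbol.

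Genes were named by a rule: the markers, the 15 highest and lowest ratios, up to 6 genes per list, all glycine genes, the 10 genes with the widest ratio between pieces and the leading genes of clusters. Nfic and other genes in the cluster paragraphs were chosen after their values were seen. The members and lists were chosen with earlier results of these data known. Some genes of the lists are not reported here by name; the counts include them.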

Additional observations from a re-analysis of the deposited data

How the results depend on the processing

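No paired analysis was possible because both samples are T1 and carry no group. The number of nuclei, 893 in the report, was 1998 with at least 1 Slc6a9 UMI. The median depth of 432 units was 458 with at least 3 Slc6a9 UMIs, 289 with at least 1 and 480 in the amacrine clusters. Genes higher over GABAergic nuclei, 822 in the report, numbered 1533 with at least 1 Slc6a9 UMI, 327 after thinning to 1000 UMIs, 480 at 3-fold, 425 with at least 300 UMIs, 432 in the amacrine clusters and 457 with a UMI of Pax6 or an AP-2 factor in both classes. Genes lower over them, 578, numbered 292 after thinning, 313 at 3-fold and 374 with at least 300 UMIs. Against the other kept nuclei, 672 higher genes became 295 with at least 1 Slc6a9 UMI, 1179 with means over nuclei, 263 at 3-fold and 1038 in the amacrine clusters, and 2703 lower genes became 1773 with at least 1 Slc6a9 UMI and 1641 at 3-fold. All 4 markers free of the rule were at least 2-fold over the rest, and 2 were with at least 1 Slc6a9 UMI. The 51 genes at least 5-fold apart between pieces became 96 with at least 1 Slc6a9 UMI, 33 without the 5% of nuclei with most UMIs, 11 after thinning, 25 in the amacrine clusters and 11 in those without the 1 nucleus with most Myh2 UMIs. List genes higher over GABAergic nuclei numbered 78 and 50 in the amacrine clusters. Thinning, a 3-fold limit and a higher UMI minimum leave fewer genes by construction, and for the other settings the cause was not tested. The amacrine clusters, the filter on Pax6 or AP-2 UMIs and the nucleus left out were chosen after seeing the data. The other 89 values of these summaries stayed within 1.5 times or within their interval. The CPM of the 4 markers over the 893 nuclei, counted apart, left its interval in 30 cases and stayed inside it in 22. Dab1 ran from 3037 to 6693 CPM and Prox1 from 405 to 816 CPM under the planned settings, so the intervals do not cover the choice of setting. Clusters numbered 13 to 17 under other resolutions or with list genes kept, with 633 to 670 nuclei in amacrine clusters and 198 to 240 AII-like nuclei. Depth limits statements on genes of few UMIs, and 1 library gives no spread between animals.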

Other observations

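A further 177 nuclei met the limits on Slc6a9 and other cells but held Gad UMIs over the limit. They had a median of 6134 UMIs, against 3877 in the 893 selected nuclei, and lay at a median depth of 482 units (441 to 531). Their summed rod genes were at 1161 CPM, against 4356 CPM in the 893 selected nuclei and 417 CPM in the 671 of the amacrine clusters, a limit that was not applied to the 177.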
